A study of Apis mellifera with 13 samples.

Results

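Expression of 5 genes of energy metabolism was followed in the antennae of honey bee workers: Adk1, Tpi, Gapdh, LOC413924 and LOC411188, out of the 13414 genes that the deposited tables list. They were chosen by gene symbol or by NCBI gene number, LOC413924 being annotated as a second glyceraldehyde-3-phosphate dehydrogenase and LOC411188 as L-lactate dehydrogenase. RNA came from the flagella, the long outer part of the antenna, of hybrid *Apis mellifera* workers in 13 libraries. VSH bees (4 libraries), named for Varroa sensitive hygiene, were marked workers caught uncapping brood cells infested by the mite *Varroa destructor*, widening the hole or clearing out the brood, and non-VSH or NVS bees (4 libraries) were marked workers of like age from the same observation hive for which no such behaviour was recorded. From library 1 to library 4 the bees had a mean age of 7.5, 9.75, 12.5 and 17 days (VSH), against 7.5, 9.5, 12.25 and 17.5 days (NVS). Foragers (FOR, 2 libraries) were taken with pollen loads at the hive entrance and nurses (NUR, 3 libraries) while they tended cells with young larvae, both from ordinary hives and of unknown age. Each library was a pool of bees, so that the spread between libraries is one between pools, and all VSH and NVS pools shared 1 hive.

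Glycolysis splits glucose into 3-carbon sugars and oxidises them to pyruvate. Triosephosphate isomerase (Tpi) interconverts the pair of 3-carbon sugars, glyceraldehyde-3-phosphate dehydrogenase (Gapdh) carries out the oxidation that follows, and lactate dehydrogenase can turn the final pyruvate into lactate. Adenylate kinase moves phosphate between adenine nucleotides and so helps to hold the ATP supply of a cell steady, a task that arginine kinase shares in insects by storing phosphate on arginine. Sensory cells of the antenna spend ATP on ion transport.

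The values are pseudo-counts, which the authors derived from read counts by adjusting each library to a common size, and they are in the unit signal rather than whole reads. VSH and NVS bees form 1 table and foragers and nurses another, each normalised on its own, so levels were compared within a table only, and levels of different genes were not compared because the values are not divided by transcript length. The column totals lay between 1.92e+07 and 2.03e+07 in the first table and between 3.36e+07 and 3.47e+07 in the second, which does not show the sequencing depth of a library. Antennal tissue was seen in its markers, with the odorant co-receptor gene Or2 at 9239 to 13125 in VSH and NVS libraries and at 13320 to 21394 in foragers and nurses. All 5 genes passed the filter on low values in both tables. VSH4, NVS2 and NUR2 stood apart from the libraries of their group. VSH4 had 2146 for the yolk protein gene Vg, against 69.4 to 204 in the other 7 libraries of its table. On the first principal component of that table VSH4 lay at 31.8, against -5.37 to -1.34 for the other VSH libraries. NVS2 lay there at -35.6, against -9.50 to 12.9 for the other NVS libraries. In the second table NUR2 lay at 66.1 on the first principal component, against 0.687 and 5.23 for the other nurses. Values without these libraries are given where they touch a result.

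Adk1, an adenylate kinase gene, rose in the antennae of VSH bees to about double its level in NVS bees, and it was the only one of the 5 genes to pass the test across all genes in either comparison. Adk1 (Beebase GB42431) was at 591, 436, 421 and 477 in VSH libraries 1 to 4, against 290.2, 202, 253 and 216 in NVS libraries 1 to 4. Every VSH library lay above every NVS library, and the highest library of both groups was that of the youngest bees. The mean was 481 ± 77.2 in VSH and 240.2 ± 39.8 in NVS bees (SD, n = 4 each). On the scale of log2(value + 1) the fold change was 1.001 (standard error 0.14, 95% interval 0.70 to 1.31, adjusted p = 0.0284 from limma over 10204 genes), the 3rd smallest p of all genes. Only 0.0392% of the genes tested passed this threshold.

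Within the pairs of libraries matched by age the VSH to NVS ratio of Adk1 was 2.04 at the youngest age, then 2.16, 1.66 and 2.21. VSH bees had the higher value in 4 of 4 pairs, and the slope of Adk1 with age was not found to differ between VSH and NVS bees (difference 0.0018 log2 units per day, 95% interval -0.083 to 0.087). With the age-matched libraries paired, the adjusted p was 0.00284, and 1.24% of genes passed. In that paired fit the fold change stayed between 0.95 and 1.09 on the log2 scale when any 1 pair was left out, with an adjusted p of 0.00247 to 0.0221. In the unpaired fit the size was as steady, from 0.90 to 1.10 with any 1 library left out, but the call was not. The adjusted p was 0.116 without VSH1, 0.122 without VSH2, 0.0591 without VSH3, 0.0553 without VSH4, 0.0705 without NVS3 and 0.0744 without NVS4, while it was 0.0177 without NVS1 and 0.0291 without NVS2. The call was also lost with no filter on low values (adjusted p = 0.0529 from limma).

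**Figure D1:**
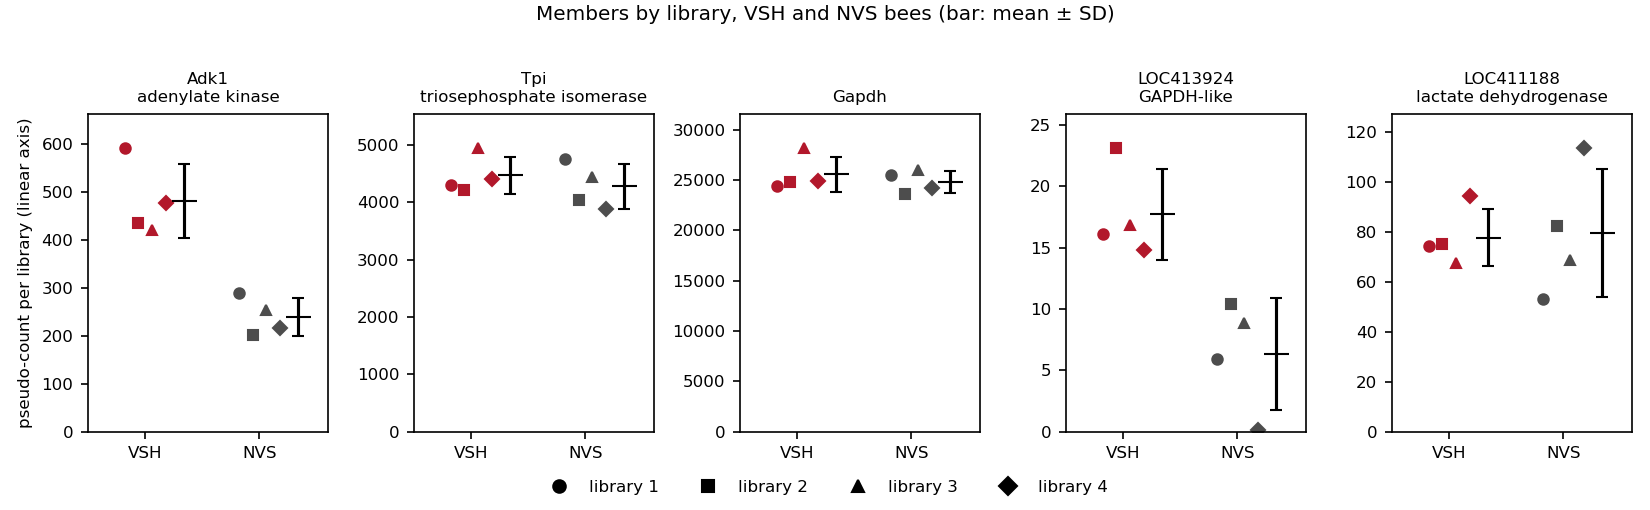
Pseudo-counts of the 5 genes in each VSH and NVS library (vertical axes linear from 0, symbols by library number, bar showing mean ± SD over 4 libraries). The 4 VSH libraries are above all NVS libraries for Adk1 (421 to 591, against 202 to 290.2) and for LOC413924 (14.8 to 23.1, against 0.126 to 10.4), while the groups overlap for Tpi, Gapdh and LOC411188.

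The other nucleotide kinase genes and the arginine kinase gene had fold changes near 0. Adk2 and Adk3, further adenylate kinases by their symbols, had log2 fold changes of -0.07 (95% interval -0.21 to 0.07) and -0.10 (-0.32 to 0.12) between VSH and NVS bees. Ak6 was at -0.12 (-0.39 to 0.14) and Argk, the arginine kinase gene, at 0.07 (-0.15 to 0.30). Each of these intervals leaves out the fold change of Adk1. The ratio of Adk1 to each of them within a library, which does not depend on how the library was scaled, was also compared, a choice made after the fold changes had been seen. The mean log2 ratio of Adk1 to Adk2 was -2.84 ± 0.25 in VSH and -3.92 ± 0.20 in NVS bees (SD, n = 4 each), a difference of 1.07. The difference was 1.10 for the ratio to Adk3, 1.13 for that to Ak6 and 0.93 for that to Argk. All 4 ratios were higher in each VSH library than in any NVS library. The exact two-sided permutation p was 0.0286 for each. It adds no support, since Adk1 was already known not to overlap.

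Cell type markers moved in part with Adk1. In bulk tissue, fewer cells of a type and less RNA per cell cannot be told apart. The 4 haemocyte genes that matched, of 6 listed, all had a higher mean in VSH bees, with a summed level of 1359 to 1934 in VSH and 1040 to 1505 in NVS libraries, and none of the 4 passed the test or separated the groups. Of these 4, PPO, a phenoloxidase gene, was highest in VSH1 (754) and NVS1 (499), as Adk1 was, while NimC1 and NimC2 were highest in VSH3 (292 and 293), Hml was highest in VSH4 (760), and all 3 were highest in NVS4 among NVS libraries. The fat body list (6 of 8 matched) summed to 1491 to 4756 in VSH and 1117 to 1482 in NVS libraries, and to 1491 to 1858 in VSH libraries 1 to 3 without VSH4. All 6 means were higher in VSH bees, and Hex70a (4.23 or more in VSH, 1.06 or less in NVS libraries) and Hex110 (12.9 or more in VSH, 10.8 or less in NVS libraries) did not overlap. Hex70a was low, at 7.05 or less outside VSH4. Of all genes 2.86% lay higher in VSH bees without overlap. Muscle, where adenylate kinase is abundant in many animals, was represented by 11 of 19 listed genes, with a sum of 3116 to 4620 in VSH (3116 to 3286 without VSH4) and 3065 to 3239 in NVS libraries. The muscle genes Mlc2 and Mp20 were at 223 and 305 in VSH4 and at 12.9 or less in the other 7 libraries (Mp20 at 0 in VSH2 and VSH3). The mean was higher in VSH bees for 9 of the 11 muscle genes. The hypopharyngeal gland list (7 of 8 matched) summed to 605 to 1333 in VSH and 857 to 1391 in NVS libraries. Of its 7 means 2 were higher in VSH bees. Of the 6 antennal markers 5 had a higher mean in VSH bees, and none separated the groups. The log2 fold change of Adk1 was 1.001 without VSH4 and 0.92 without NVS2. The part of these cell types in the Adk1 result was not tested. Virus load differed between the groups as well. The paper reports that reads from bee viruses took a larger share in NVS than in VSH libraries. It adds that its metabolism and motor activity findings might have to do with this difference. The part of virus load in the results for Adk1 or the other genes was not tested.

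In foragers and nurses Adk1 had the opposite sign, without passing the test. It was at 410.5 and 259.9 in FOR2 and FOR3, against 1289, 847 and 370 in NUR1, NUR2 and NUR3. NUR3 lay within the forager range, so that the groups overlapped, and the nurses were widely spread. The mean was 335 ± 106 in foragers (SD, n = 2) and 835 ± 459 in nurses (SD, n = 3), with a log2 fold change of -1.18 (95% interval -2.35 to 0.00, adjusted p = 0.384 from limma over 10436 genes, unadjusted p = 0.0504). Leaving out any 1 library moved it between -1.67 (without NUR3) and -0.78 (without NUR1), and without NUR2 it was -1.08. Foragers and nurses came from several hives, and the sources do not say whether libraries of one number shared a hive. Within numbers, Adk1 in foragers was 0.485 of its level in nurses for number 2 and 0.703 for number 3. With the replicate number as a block the log2 fold change was -0.78 (unadjusted p = 0.0143, adjusted p = 0.215 from limma), in which NUR1 does not enter the fold change because it has no forager library of its number. The haemocyte genes summed to 1517 to 2039 in foragers and 2788 to 3263 in nurses, with all 4 means higher in nurses. PPO did not overlap, at 143 and 224 in foragers, against 802, 1368 and 668 in nurses 1 to 3, and was highest in NUR2, whereas Adk1 was highest in NUR1. NimC1, NimC2 and Hml overlapped between the groups. Fat body genes summed to 2717 to 2808 in foragers and 2255 to 3450 in nurses. The part of these cell types in the values of Adk1 was not tested.

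LOC411188, the lactate dehydrogenase gene (GB48134), had its higher values in foragers. It was at 239 and 266 in FOR2 and FOR3, against 102, 82.2 and 102 in NUR1, NUR2 and NUR3. Both forager libraries lay above all nurse libraries, and the 3 nurse libraries were close together. The mean was 253 ± 19.2 in foragers (SD, n = 2) and 95.4 ± 11.4 in nurses (SD, n = 3). The log2 fold change was 1.40 (standard error 0.27, 95% interval 0.76 to 2.04), which ranked 97th by p among all genes and did not pass after adjustment (adjusted p = 0.136 from limma, unadjusted p = 0.00127). It stayed between 1.30 (without NUR2) and 1.48 (without FOR2) when any 1 library was left out, with an adjusted p of 0.0910 to 0.624. Some markers of other tissues differed between the groups as well. All 7 hypopharyngeal gland means were higher in foragers. Mrjp2, Mrjp4 and Mrjp5, however, were at 0 in FOR2. They were high in FOR3 (65.1, 407 and 2388) and also in NUR3 (53.5, 290 and 2149). Hbg3 was at 1839 and 3111 in foragers, against 905, 715 and 1428 in nurses 1 to 3. Gld was at 89.1 and 55.0 in foragers, against 26.5, 40.0 and 41.4 in nurses 1 to 3. Neither Hbg3 nor Gld overlapped. The gland list summed to 1959 and 6376 in foragers, against 938, 819 and 4171 in nurses 1 to 3. The muscle list summed to 4509 to 4827 in foragers and 4319 to 4946 in nurses, most of it from Actn. The mean was higher in foragers for 8 of its 11 genes. Of its 11 genes 4 did not overlap, against 32.6% of all genes taken in either direction. Among the 4, Mhc1 was at 198 and 252 in foragers, against 99.98, 62.2 and 57.7 in nurses 1 to 3. TpnCIIIa was higher in foragers too, at 18.1 and 8.52, against 4.92, 1.09 and 2.30 in nurses 1 to 3. So was Mp20, near the floor at 20.1 and 0.090, against 0 in all nurses. TpnCI was lower, at 90.1 and 87.7 in foragers, against 124 to 283 in nurses. The part of these tissues in the LOC411188 values was not tested. Among the 5 genes this was the only one whose groups did not overlap in the table, and 16.1% of all genes lay without overlap in that direction. Another 16.5% did so in the other direction, where none of the 5 did. None of the 5 passed the threshold in limma, whereas 0.0958% of all genes did, and 1 had an unadjusted p under 0.05, against 13.0% of all genes.

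**Figure D2:**
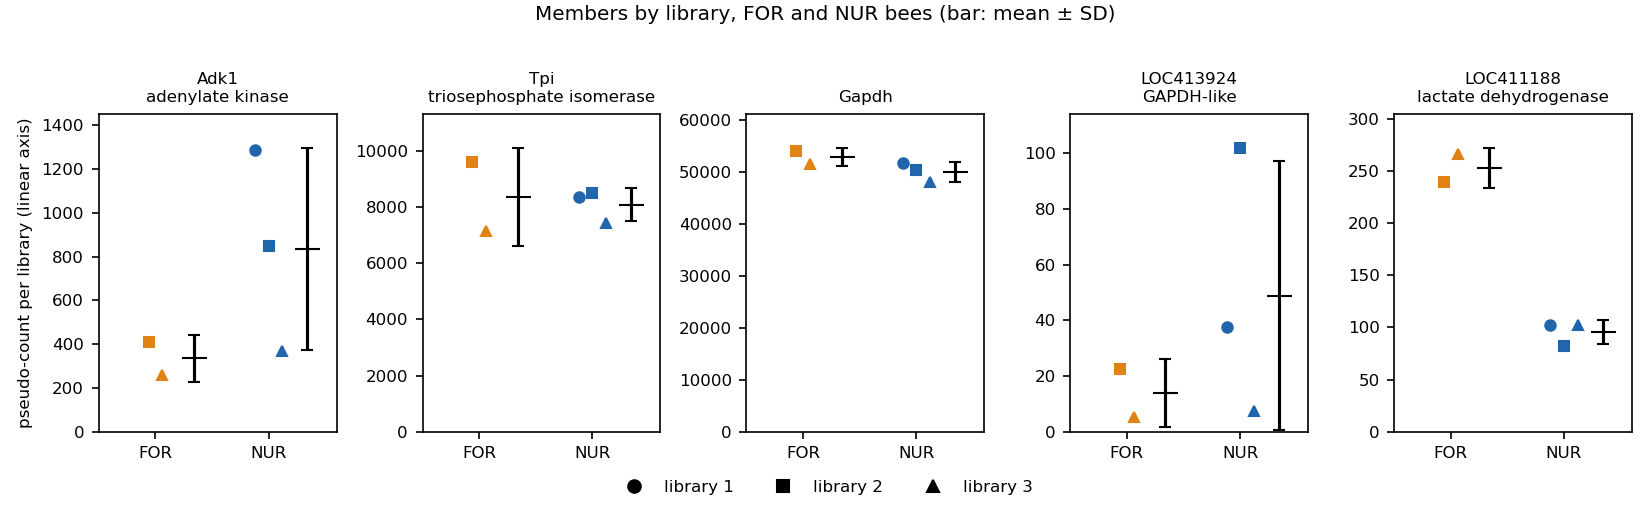
Pseudo-counts of the 5 genes in each forager and nurse library (vertical axes linear from 0, symbols by library number, bar showing mean ± SD over 2 FOR or 3 NUR libraries). LOC411188 is at 239 and 266 in foragers, above the 82.2 to 102 of nurses, whereas Adk1 spreads from 370 to 1289 among nurses.

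Between VSH and NVS bees LOC411188 did not differ detectably. It was at 74.3, 75.2, 67.4 and 94.3 in VSH libraries 1 to 4, against 53.3, 82.6, 69.0 and 114 in NVS libraries 1 to 4. The ranges overlapped, the oldest library being the highest of both groups. The log2 fold change was 0.01 with a 95% interval of -0.49 to 0.51 (adjusted p = 0.992 from limma), and its sign changed with the library left out, from -0.16 to 0.20.

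The fitted slope of LOC411188 with age was positive but did not pass the test. Its slope with mean age, fitted beside the group over the 8 VSH and NVS libraries, was 0.064 log2 units per day (standard error 0.026, 95% interval 0.0062 to 0.12), with an unadjusted p of 0.0325 and an adjusted p of 0.353 from limma. Without NVS4, the oldest library, the slope was 0.039. The slope was not found to differ between VSH and NVS bees (difference -0.057 per day, 95% interval -0.17 to 0.059). LOC413924 had a slope of -0.17 per day (unadjusted p = 0.0460, adjusted p = 0.398), which was -0.0070 without NVS4. Slopes of Adk1, Tpi and Gapdh were -0.025, -0.0080 and 0.00081 per day, with 95% intervals that included 0. None of the 5 passed the threshold in limma, against 0.147% of all genes, and 2 had an unadjusted p under 0.05, against 12.3% of all genes.

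**Figure D3:**
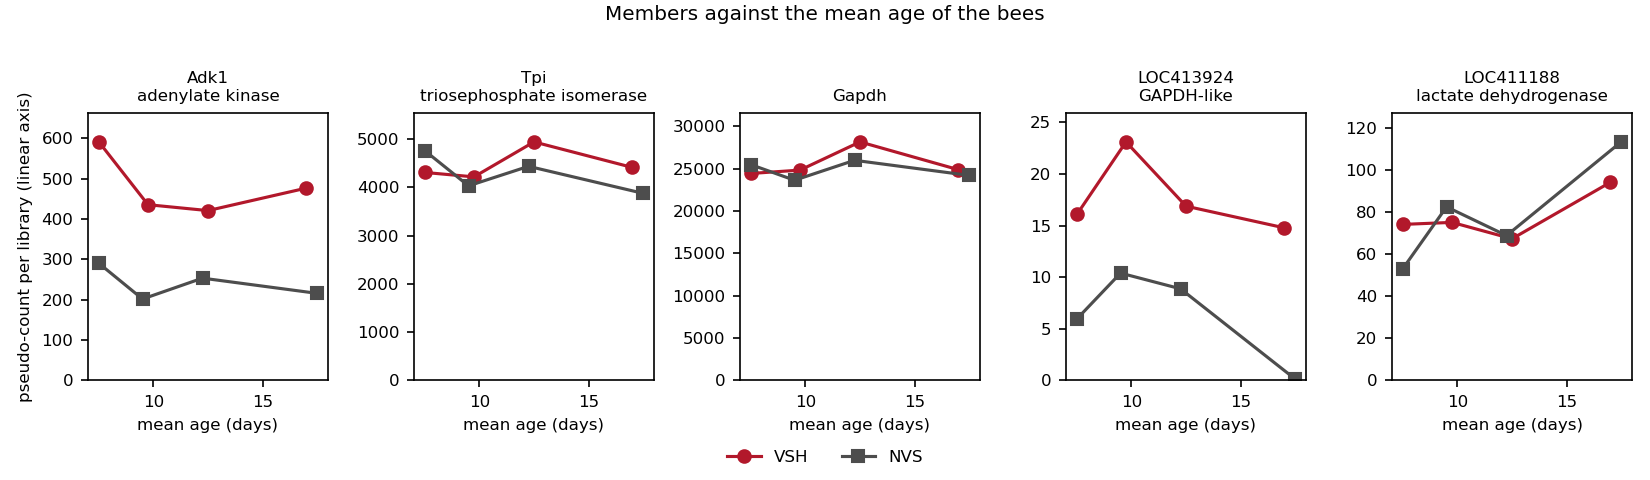
Pseudo-counts of the 5 genes against the mean age in days of the bees of each library, for 4 VSH and 4 NVS libraries joined by lines (vertical axes linear from 0). Adk1 in VSH bees stays above NVS bees over the whole range of ages, and LOC411188 has its highest value in the oldest library of both groups (94.3 in VSH and 114 in NVS bees).

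LOC413924 (GB50901), the glyceraldehyde-3-phosphate dehydrogenase gene that lies directly beside Gapdh in the later assembly Amel_HAv3.1, had low values throughout, which were higher in VSH bees without passing the test. It was at 16.1, 23.1, 16.9 and 14.8 in VSH libraries 1 to 4, against 5.95, 10.4, 8.87 and 0.126 in NVS libraries 1 to 4. No NVS library reached the lowest VSH library, and NVS4 was near 0. The mean was 17.7 ± 3.70 in VSH and 6.33 ± 4.53 in NVS bees (SD, n = 4 each). The log2 fold change was 1.76 (95% interval 0.37 to 3.15, adjusted p = 0.344 from limma, 0.138 with the age-matched libraries paired), and it was 1.003 without NVS4. At such low values the size depends on the amount added before taking logs, at 1.99 with 0.5 and 1.20 with 4. Within age-matched pairs 1 to 3 the VSH to NVS ratio was 2.70, 2.22 and 1.90. It was 118 in pair 4, where NVS4 was near 0. How alike the sequences of LOC413924 and Gapdh are, and so whether reads could be shared between them, was not tested.

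Adk1 and LOC413924, 2 of the 5 genes, lay higher in every VSH than in every NVS library, as did 2.86% of all genes, and none lay lower in all, against 3.26% of all genes. The same 2 had an unadjusted p under 0.05, against 11.2% of all genes. In foragers and nurses LOC413924 scattered most of the 5 genes. It was at 22.5 and 5.40 in FOR2 and FOR3, against 37.5, 102 and 7.37 in NUR1, NUR2 and NUR3. The groups overlapped, and NUR2 was the highest by far. The log2 fold change was -1.39 (95% interval -4.01 to 1.24, adjusted p = 0.642 from limma) and it was not stable in size, at -0.45 without FOR3, -0.55 without NUR2, -2.33 without FOR2 and -2.36 without NUR3. Among the members, Adk1 and LOC413924 correlated at 0.66 across the 8 VSH and NVS libraries and at 0.82 across the 5 forager and nurse libraries, a description over libraries that share their group differences.

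Gapdh (GB50902) hardly varied between libraries. It was at 24442, 24841, 28173 and 24897 in VSH libraries 1 to 4, against 25488, 23641, 25998 and 24215 in NVS libraries 1 to 4. In foragers it was at 54038 and 51567, against 51719, 50363 and 48002 in nurses 1 to 3. The groups overlapped in both tables. The log2 fold change was 0.04 between VSH and NVS bees (95% interval -0.13 to 0.21, adjusted p = 0.875 from limma) and 0.08 between foragers and nurses (-0.25 to 0.41, adjusted p = 0.857). These intervals leave out changes of more than 1.16-fold up in VSH bees and of more than 1.33-fold up in foragers. The spread of log2 values within groups was 0.081 in the first table and 0.052 in the second. That put Gapdh at the 24.9th and the 6.45th percentile of spread among the 3623 and 5221 genes with a mean of at least 1000, whose median spread was 0.108 and 0.136.

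Tpi (gene number 726117) did not differ detectably between groups either, and it varied more within them. It was at 4310, 4219, 4944 and 4415 in VSH libraries 1 to 4, against 4761, 4033, 4438 and 3878 in NVS libraries 1 to 4. In foragers it was at 9576 and 7129, against 8332, 8486 and 7425 in nurses 1 to 3, the pair of foragers spanning the whole range of nurses. The log2 fold change was 0.07 in VSH bees (95% interval -0.10 to 0.24, adjusted p = 0.781 from limma) and 0.03 in foragers (-0.31 to 0.38, adjusted p = 0.949), where its sign changed with the library left out (-0.18 without FOR2 to 0.25 without FOR3). Its spread within groups was 0.119 and 0.194, at the 58.8th and the 72.5th percentile of the same genes. In the later assembly Tpi overlaps the next gene, LOC409951, so that its level is uncertain to that extent. Tpi and Gapdh varied together from library to library, with a correlation of log2 values of 0.85 over the 8 VSH and NVS libraries and 0.66 over the 5 others. Both share the scaling of their library.

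The ratio of Gapdh to Tpi within a library varied little among VSH and NVS bees, at a mean log2 value of 2.52 ± 0.028 in VSH and 2.54 ± 0.091 in NVS bees (SD, n = 4 each). The mean was 2.68 ± 0.25 in foragers (SD, n = 2) and 2.63 ± 0.062 in nurses (SD, n = 3). Set against Gapdh, the other genes kept the pattern of their fold changes. Adk1 relative to Gapdh had a mean log2 ratio of -5.74 ± 0.29 in VSH and -6.70 ± 0.18 in NVS bees, a difference of 0.96 with no overlap between the groups. In foragers it was at -7.33 ± 0.42 and in nurses at -6.08 ± 0.86, a difference of -1.25. LOC411188 relative to Gapdh differed by -0.03 between VSH and NVS bees, with means of -8.35 ± 0.27 and -8.32 ± 0.50. Between foragers and nurses it differed by 1.32, with means of -7.70 ± 0.16 and -9.03 ± 0.19. The balance of Adk1 to LOC411188 had a mean log2 ratio of 2.61 ± 0.27 in VSH and 1.62 ± 0.66 in NVS bees, and of 0.37 ± 0.57 in foragers and 2.95 ± 0.96 in nurses.

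Of the 10 ratios between members, 5 did not overlap between VSH and NVS bees and had the smallest p of the design, 0.0286 in an exact two-sided permutation test. After adjustment over the 10 ratios these 5 were at 0.0571 and did not pass. Each of the 5 held Adk1 or LOC413924, whose own values already did not overlap, so they add no separate evidence. With 2 foragers against 3 nurses an exact two-sided p cannot go below 0.10. That value was reached by LOC411188 relative to Gapdh and to Tpi, and LOC411188 itself already did not overlap.

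**Figure D4:**
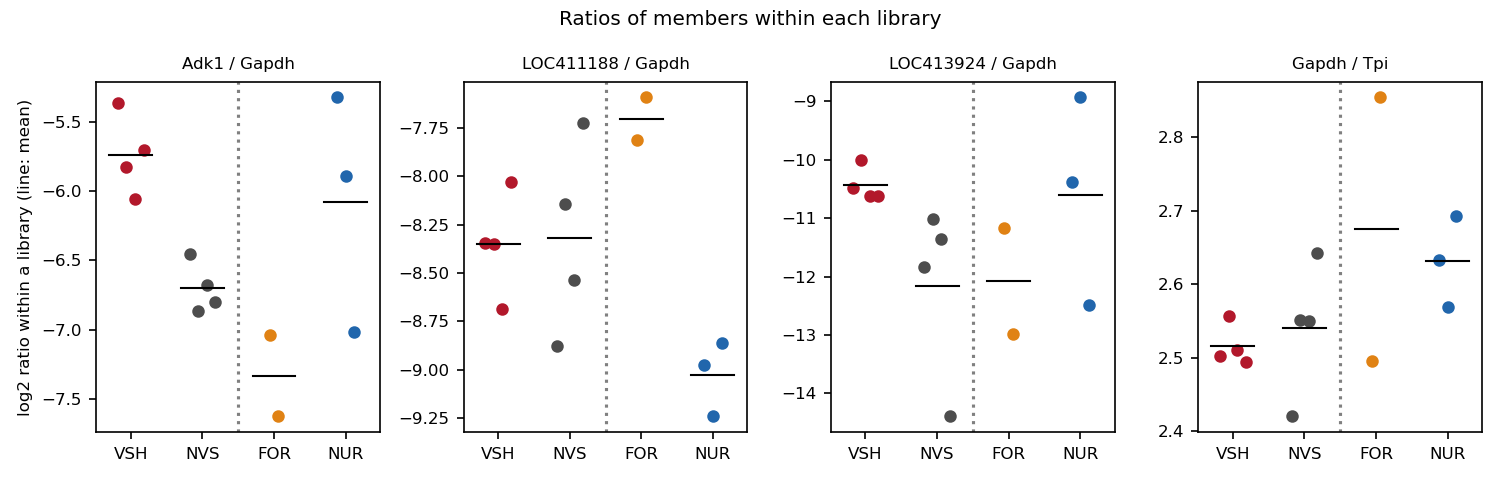
Log2 ratios of a pair of genes within each library (points) with the group mean (line), for VSH, NVS, FOR and NUR bees; a dotted line parts the tables that were normalised separately. Adk1 to Gapdh is higher in VSH (-6.06 to -5.37) than in NVS bees (-6.87 to -6.45), LOC411188 to Gapdh is higher in foragers (-7.82 to -7.59) than in nurses (-9.24 to -8.86), and Gapdh to Tpi overlaps between groups.

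The wider list of glycolysis and phosphate transfer genes held 15 genes, the 5 above and 10 found by symbol: Pfk, Pgk, Pgm1, Pgm2, Gpdh, PDHB, Adk2, Adk3, Ak6 and Argk. Hexokinase, aldolase, enolase and pyruvate kinase were not included, because no gene could be assigned to them with certainty by symbol. Glucose-6-phosphate isomerase, phosphoglycerate mutase and trehalase were missing from the list as well. A further entry with the symbol pfk was left out because its function was not certain. Between VSH and NVS bees none of these 10 passed the threshold in limma. None had an unadjusted p under 0.05, against 11.2% of all genes. The fold changes, 6 positive and 4 negative, ran from -0.12 to 0.14. Their median was 0.03, beside 0.00 over all genes. Pfk, by its symbol a gene of phosphofructokinase, the enzyme that commits sugar to glycolysis, had the smallest p of them. Its mean was 5074 ± 160 in VSH and 4605 ± 383 in NVS bees (SD, n = 4 each). On the log2 scale Pfk was 0.14 higher in VSH bees (adjusted p = 0.462 from limma). Pgk, for the phosphoglycerate kinase step that makes ATP after Gapdh, followed at -0.08 (adjusted p = 0.608).

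Between foragers and nurses none of the 10 passed in limma either, and 2 had an unadjusted p under 0.05, against 13.0% of all genes. Gpdh, whose enzyme links glycolysis to glycerol phosphate, was at 13528 and 11892 in foragers, against 9512, 10425 and 10119 in nurses 1 to 3, or 0.34 higher on the log2 scale (95% interval 0.08 to 0.60, adjusted p = 0.297 from limma). Adk3 was at 2082 and 1853 in foragers, against 1410, 1726 and 1143 in nurses 1 to 3, or 0.48 higher on the log2 scale (95% interval 0.05 to 0.91, adjusted p = 0.345). Both genes lay higher in all forager than in all nurse libraries, while Pgk (-0.11) and Argk (-0.13) lay lower in all. Of all genes, 16.1% lay higher and 16.5% lower in this way. The median of the 10 was -0.03, beside 0.00 over all genes. Adk3 and Adk1 had opposite signs in this comparison. The log2 ratio of Adk1 to Adk3 had a mean of -2.58 ± 0.35 in foragers and -0.93 ± 0.75 in nurses (SD, n = 2 and n = 3 libraries). The exact two-sided permutation p of this ratio was 0.20.

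**Figure D5:**
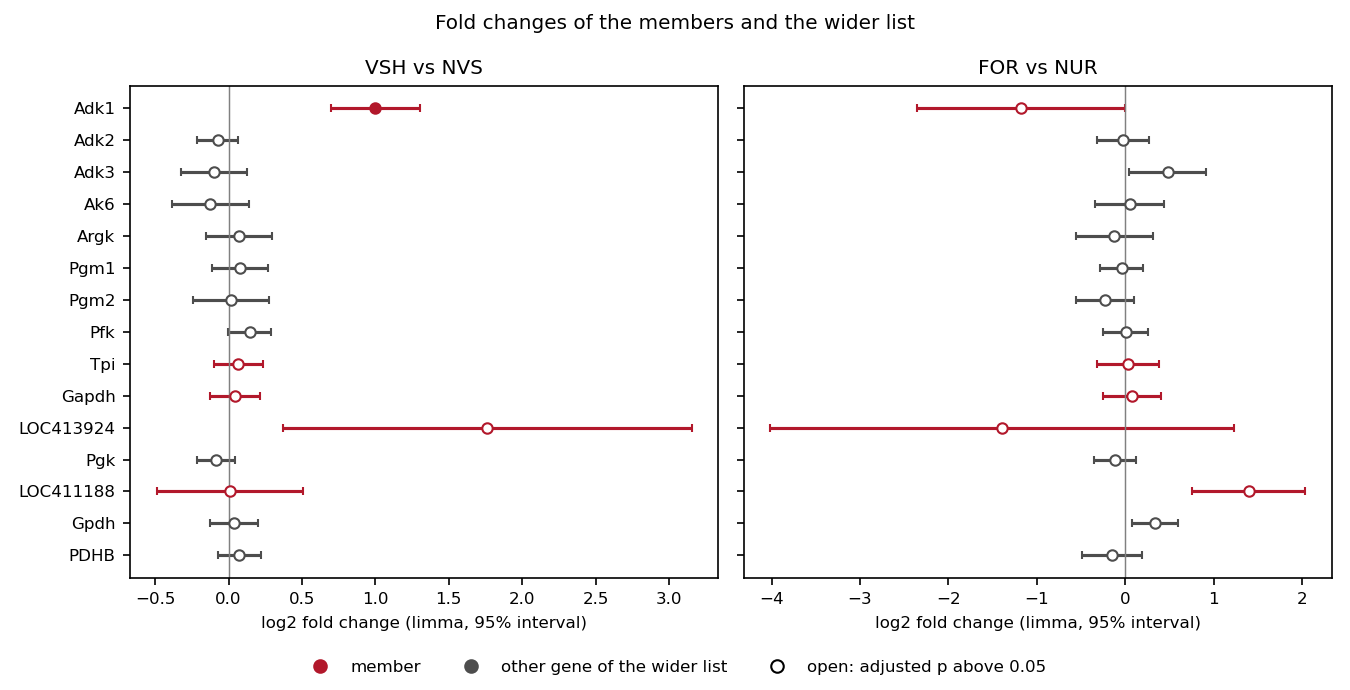
Log2 fold changes with 95% intervals from limma for the 15 genes of the wider list, VSH vs NVS on the left and FOR vs NUR on the right (filled points passed an adjusted p of 0.05). Adk1 at 1.001 in VSH bees is the only filled point, and LOC411188 at 1.40 is the highest point among foragers.

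Some other genes followed the members closely across the 8 VSH and NVS libraries. Among 8127 genes (8128 for LOC413924) with a mean of at least 50 in both tables, the highest correlation of log2 values with LOC411188 was 0.94 for LOC551950, followed by LOC409107 and inx7, an innexin gene of gap junctions (0.94 each). Over the 5 forager and nurse libraries, which did not enter that choice, inx7 correlated with LOC411188 at 0.99, LOC551950 at 0.84 and LOC409107 at 0.60. Such a correlation includes the difference between foragers and nurses. The log2 fold change in foragers was 1.40 for LOC411188, against 1.55 for inx7, 1.29 for LOC551950 and 0.23 for LOC409107. For Adk1 the closest were LOC724672 (0.96), LOC409373 (0.96) and LOC724892 (0.95), with 0.33, -0.39 and 0.65 over the 5 others. For Gapdh the closest was LOC724630, at 0.98 and then 0.71, for Tpi it was LOC410516, at 0.96 and then -0.01, and for LOC413924 it was LOC551041, at 0.97 and then 0.60. The 2nd and 3rd closest genes did not carry over to the 5 others. They were there at -0.13 and -0.07 for Gapdh, -0.19 and 0.08 for Tpi, and -0.15 and -0.07 for LOC413924. So many genes were searched over the 8 VSH and NVS libraries that correlations of 0.94 to 0.98 there are a description of these libraries alone.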

How the data were processed

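According to the study's methods and the submitters' processing notes, the authors mapped reads of a stranded kit to *A. mellifera* assembly 4.5 (TopHat2, Bowtie2 2.2.3), counted reads for each NCBI gene (HTSeq 0.6.1p1) and used the RLE (relative log expression) scaling of edgeR 3.4.0. The deposited signal values are the resulting pseudo-counts, of which 0% above 0 are whole (tolerance 1e-06), so reads were not recovered and no count test was run. Values below 1e-10 were set to 0. Whether a library held 4 or 8 pairs of antennae differs between the labels and the methods.

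Genes with a sum of at least 20 (VSH and NVS) or 15 (FOR and NUR) were compared on log2(value + 1) with limma 3.58.1 in R 4.3.3 (variance trend, two-sided, Benjamini-Hochberg over all genes tested, threshold 0.05). Age slopes had the group as a covariate. Ratios were tested by exact permutation over libraries in Python 3.11.15. Scripts were tested on simulated data. Deviations from group means correlated at 0.161, 0.215, 0.276 and 0.388 within pairs 1 to 4 of VSH and NVS libraries (8133 genes), which the study matched by age, so these were taken as pairs in an alternative fit. Other alternatives were the pseudocount, the filter, the scaling and leaving out each library.

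All 5 members are described in each comparison. Other genes were named by rule: those of the wider list past the threshold or with the smallest p, and the genes most correlated with each member. The order of genes in Amel_HAv3.1 came from a RefSeq table in which all 5 members matched by gene number. The members and lists were chosen with earlier results of these data known.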

Additional observations from a re-analysis of the deposited data

Results flagged for a closer look

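Gapdh in VSH bees had 1 library away from the others: VSH3 was at 28173, a log2(value + 1) of 14.78, while the other 3 lay between 24442 and 24897. The gap below VSH3 was 0.870 of the range of the 4 values. Of the 10 groups of 4 values examined this was the only one so marked, and chance marks about 1 group in 20. VSH3 was also the highest library for Tpi, at 4944. Without VSH3 the log2 fold change of Gapdh between VSH and NVS bees was -0.0053.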

How the results depend on the processing

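Adk1 kept its direction between VSH and NVS bees in all alternatives run, and its fold change was 1.001 with an adjusted p of 0.0529 with no filter on low values, where more genes were tested. With 1 library left out it ranged from 0.90 to 1.10. The number of genes past the threshold was 4 between VSH and NVS bees, 2 with no filter, 127 with the replicate block (paired fit) and 0 to 11 with 1 library left out, 11 being without NVS2 and 0 without VSH1, VSH2, VSH3, NVS3 or NVS4. The paired fit gave 234, 30, 2 and 16 genes without pair 1, 2, 3 and 4, alternatives chosen after seeing the data. Between foragers and nurses it was 10, and 4 with a pseudocount of 0.5, with no filter or with a minimum mean of 10, 6 with the replicate block and 0 to 85 with 1 library left out, 85 being without NUR2 and 0 without FOR2, FOR3 or NUR3. For age slopes it was 15, 0 with no filter, 32 with the log2 of age and 0 to 62 with 1 library left out, 62 being without VSH3 and 0 without VSH1, NVS1 or NVS4. The cause of these moves was not tested.

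With 1 library left out, the difference in log2 ratio between VSH and NVS bees ranged from 0.83 to 1.07 for Adk1 to Gapdh, 0.81 to 1.04 for Adk1 to Tpi, 0.76 to 1.26 for Adk1 to LOC411188, -2.09 to -0.81 for LOC411188 to LOC413924, 0.97 to 2.10 for LOC413924 to Gapdh and 0.98 to 2.08 for LOC413924 to Tpi. Without NVS1 these 6 had an adjusted p of 0.0476 in the permutation test. All 6 then shared the smallest p possible, and such ties lower the adjusted p without stronger evidence. The median of the wider list between foragers and nurses was -0.02, and -0.15 to 0.079 with 1 library left out. The replicate block changed no call among the 5 genes. Over all alternatives 431 values kept their side of the threshold or, for counts and medians, their size, and 31 moved further. Values that were never called could change sign among the 431. LOC411188 between VSH and NVS bees did so, at 0.01 in the main fit and -0.16 without NVS1. Another 7 lost and 6 gained a call, and no called value changed sign. The 6 gains were the 6 ratios above without NVS1. Leaving out a forager leaves 1 library, which is then assumed to vary like the nurses. Depth per library is not known from these values, and LOC413924, at 0.126 to 102, is the gene it limits most.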
